A study of Mus musculus with 4 samples.

Results

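The late Cxcr2 neutrophil-like cells of MLL-AF9 leukaemia are the leukaemia cells that carried transcripts of Cxcr2, the receptor by which late neutrophils answer chemokines, while lacking transcripts of the proliferation genes Mki67 and Top2a. They were selected on measured values, from cells with 500 or more genes, 1000 or more UMIs (unique molecular identifiers, each standing for 1 captured transcript) and at most 10% mitochondrially encoded UMIs. A cell was kept if it held 1 or more UMIs of Cxcr2, 0 UMIs of Mki67 and Top2a, and under 1% of its UMIs from the stefin genes Stfa1, Stfa2, Stfa3, Stfa2l1, Cstdc4 and Cstdc5. The rule gave 2851 of the 24955 leukaemia cells that passed the filter, out of 51611 such cells in the whole series. In the WT MLL-AF9 library 1152 of 13177 cells were kept, which is 8.74% (interval at 95% confidence 8.27 to 9.24). In the KO MLL-AF9 library 1699 of 11778 cells were kept, which is 14.4% (13.8 to 15.1). Since more UMIs per cell make a Cxcr2 UMI easier to find, the rule was also applied to cells thinned to 2000 UMIs each, and the shares were then 6.55% and 8.50%.

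The study compared mouse bone marrow cells wild type (WT) for Rbm5 with cells in which Rbm5 was knocked out (KO), to ask whether this RNA-binding protein controls the self-renewal genes of MLL-fusion leukaemia. The WT MLL-AF9 and KO MLL-AF9 libraries hold primary leukaemia cells carrying the MLL-AF9 fusion, taken at one endpoint after primary transplantation, and the WT c-Kit+ and KO c-Kit+ libraries hold the corresponding normal marrow cells. Each of the 4 groups is 1 library, so WT and KO leukaemia differ in genotype and also in being separate leukaemias and separate libraries, and these cannot be told apart. The labels name neither the deleted part of Rbm5 nor the age, strain or number of the animals or the cells the hosts still had. All intervals below are at 95% and cover counting error only, and no difference between groups was tested.

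Neutrophils mature through stages that can be read from their transcripts. Promyelocytes make primary granule proteins such as myeloperoxidase and elastase, later dividing and then resting precursors make secondary granule proteins such as lactoferrin, and the last stages make gelatinase, chemotactic receptors and Cxcr2, which draws the cell from the marrow into the blood. In MLL-rearranged leukaemia the fusion protein keeps Hoxa9, Hoxa10 and their partner Meis1 switched on, genes that normal granulocytes turn off as they differentiate.

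The Rbm5 gene (chromosome 9, 107740371 to 107770996, minus strand, GRCm38) was detected in every library, at 161 CPM (UMIs of the gene scaled to an equal total for each group of cells) in the late Cxcr2 cells of WT leukaemia and 104 CPM in those of KO leukaemia, and at 160 and 117 CPM in the other cells. In the cells of c-Kit+ marrow selected by the same rule (the c-Kit+ Cxcr2 cells) it stood at 86.8 CPM (WT) and 96.0 CPM (KO), and in the other c-Kit+ cells at 74.7 and 89.2 CPM. A 3′ tag outside a deleted part checks nothing, so these values do not settle the labels, and KO here means the library labelled KO. The libraries held 12762 to 14577 barcodes and 94122777 to 102884646 UMIs. Late Cxcr2 cells had a median of 3562 UMIs in WT and 5105 in KO, fewer than the 6269 and 7910 of the other leukaemia cells. Between 40 and 59 filtered barcodes were shared by any pair of libraries, and 2 barcodes were late Cxcr2 cells in both leukaemias. The doublet caller Scrublet marked 38 late Cxcr2 cells in WT (3.30%) and 67 in KO (3.94%), and these were kept.

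The selected cells carried the other late neutrophil genes. Of Retnlg, Mmp8, Fpr1 and Il1b, 2 or more were detected in 78.1% of late Cxcr2 cells in WT and 85.5% in KO, against 12.2% and 26.5% of the other cells, which had more UMIs. All 4 were detected in 12.6% and 30.3% of late Cxcr2 cells, and none in 8.33% and 4.53%. By this count the name fits most of the selected cells but not each one. The count is not matched for depth between WT and KO. It also includes Il1b, which was higher in the other KO cells too. In cluster 4 of KO, described below, Il1b was detected in 65.2% of cells and Retnlg in 32.3%.

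Retnlg, a resistin-like protein secreted by mature neutrophils (chromosome 16, 48872621 to 48874496), stood at 1967 CPM in the late Cxcr2 cells of WT leukaemia and 2011 CPM in those of KO leukaemia, against 123 and 222 CPM in the other cells. The late Cxcr2 cells were thus 16.0-fold and 9.05-fold higher. The c-Kit+ Cxcr2 cells reached 15969 and 14584 CPM, so the leukaemic cells held 0.123 and 0.138 of the normal level. Mmp8, the neutrophil collagenase, stood at 1042 and 763 CPM in late Cxcr2 cells, at 102 and 125 CPM in the other cells, and at 2195 and 1794 CPM in c-Kit+ Cxcr2 cells. Fpr1, a receptor for bacterial formyl peptides, was as CPM higher in late Cxcr2 cells (396 and 224) than in the c-Kit+ Cxcr2 cells (283 and 166 CPM), with the other leukaemia cells at 37.0 and 40.0 CPM, and with size factors the WT direction against c-Kit+ cells turned to a log2 ratio of -0.21. Cxcr2 itself (chromosome 1, 74153989 to 74161246), which the rule used, stood at 443 and 288 CPM in late Cxcr2 cells and at 414 and 430 CPM in c-Kit+ Cxcr2 cells. Il1b, the inflammatory cytokine interleukin-1 beta, stood apart between the leukaemias, at 165 CPM in the WT cells and 1339 in the KO cells.

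**Figure D1:**
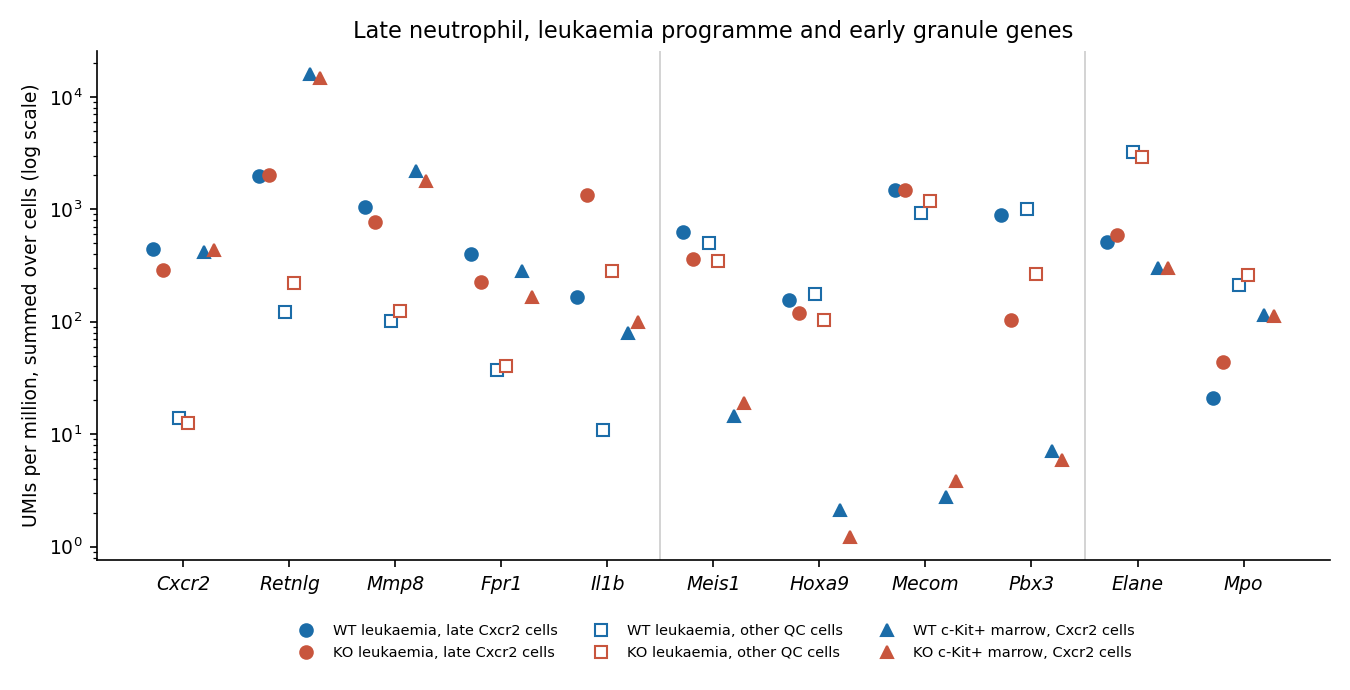
Levels (CPM of summed UMIs, log axis) of named genes in late Cxcr2 cells, in the other leukaemia cells and in c-Kit+ Cxcr2 cells, 1 point per library and cell group without error bars. Retnlg is high in c-Kit+ Cxcr2 cells (15969 and 14584 CPM), intermediate in late Cxcr2 cells (1967 and 2011) and low in the other leukaemia cells (123 and 222), while Meis1 is high in both kinds of leukaemia cell (344 to 630) and low in c-Kit+ Cxcr2 cells (14.4 and 19.1).

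The level of the late genes followed the number of Cxcr2 UMIs in a cell among non-cycling leukaemia cells under the stefin limit. In WT, Retnlg stood at 143 CPM in the 5513 cells with 0 Cxcr2 UMIs and at 1454 CPM in the 590 cells with 1, which are the values just outside and just inside the limit of the rule. It went on to 2356, 2738 and 3387 CPM in cells with 2, with 3 to 4 and with 5 or more Cxcr2 UMIs. In KO the same steps were 286, 1488, 2405, 3105 and 4198 CPM. Elane, the primary granule elastase, ran the other way in KO, from 2285 CPM at 0 Cxcr2 UMIs through 728, 504 and 233 to 83.4 CPM. In WT it went from 2395 CPM through 658, 385 and 240 CPM, with 410 CPM in the 43 cells of the highest step. Meis1 did not go down along these steps, at 568, 603, 652, 667 and 716 CPM in WT and 333, 358, 360, 374 and 440 CPM in KO. Hoxa9 stood between 137 and 172 CPM in WT and between 96.0 and 130 CPM in KO over the 5 steps.

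**Figure D2:**
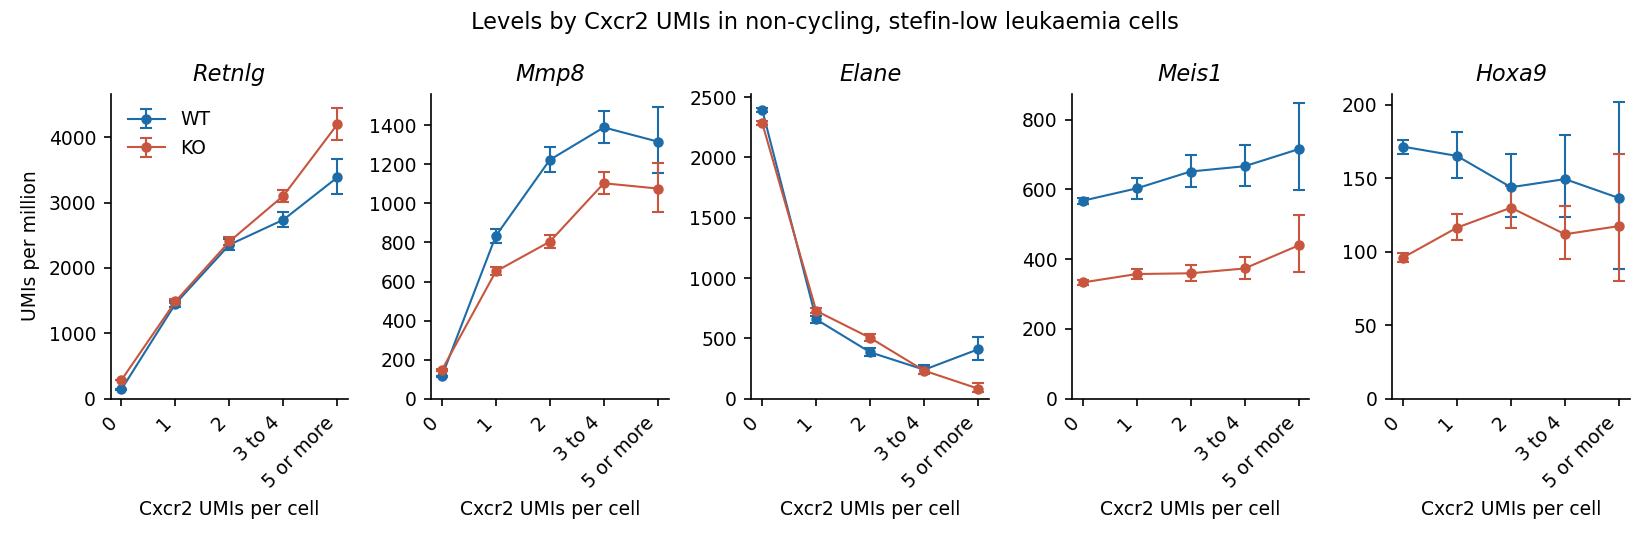
Levels (CPM, linear axes from 0) of Retnlg, Mmp8, Elane, Meis1 and Hoxa9 against the number of Cxcr2 UMIs per cell, in non-cycling leukaemia cells under the stefin limit, with exact Poisson intervals as bars. Retnlg goes from 143 to 3387 CPM in WT and from 286 to 4198 CPM in KO, while Meis1 goes from 568 to 716 CPM and from 333 to 440 CPM.

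The stefin limit left out 264 Cxcr2 cells in WT and 180 in KO. Cells just inside it, with 0.5% to 1% stefin UMIs, held 655 CPM (WT) and 401 CPM (KO) of Meis1, and cells just outside it, with 1% to 2%, held 728 and 400 CPM. Retnlg stood at 2124 CPM inside and 1963 CPM outside in WT, and at 2612 and 2260 CPM in KO. The proliferation limit left out 448 and 502 Cxcr2 cells. Those cells held more Elane (2767 and 2123 CPM) and less Retnlg (695 and 821 CPM) than the late Cxcr2 cells.

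Against the other cells of the same leukaemia, late Cxcr2 cells showed fewer primary granule and division transcripts and more of the last neutrophil stages. The summed stem and multipotent progenitor list, which includes Meis1 and Mecom, was higher in them, at 2120 (WT) and 1833 CPM (KO) against 1442 and 1541 CPM. Of 7812 genes whose mean level reached 10 CPM, 284 (3.64%) were 2-fold or more higher in both libraries and 1298 (16.6%) 2-fold or more lower. These counts describe cells that were selected on measured values and are no test. The median log2 ratio of all genes, taking for each gene the smaller of the libraries' ratios where these have one sign and 0 where they do not, was -0.18, and size factors moved it to 0.00 and the counts to 740 and 611.

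Tertiary granule genes, made late in maturation, were higher in both libraries for 6 of 6 measured, 4 of them 2-fold or more. Mmp9, the gelatinase, stood at 1546 and 1269 CPM in late Cxcr2 cells against 287 and 356 CPM in the other cells. Primary granule genes were lower in both libraries for 7 of 8, and 6 of 8 were 2-fold lower. Elane stood at 511 and 587 CPM against 3256 and 2916 CPM, which is 0.157 and 0.201 of the other cells' level. Mpo, myeloperoxidase, stood at 21.1 and 43.5 CPM against 212 and 261 CPM.

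Of secondary granule genes 8 of 12 were higher and 3 lower in both libraries as CPM, with 0 at 2-fold in both, and with size factors 10 were higher and 2 lower, with 5 at 2-fold. Ltf, lactoferrin, stood at 1411 and 1874 CPM in late Cxcr2 cells against 496 and 1123 CPM. Camp, the cathelicidin, was lower, at 4863 and 9521 CPM against 7673 and 16520 CPM. Ngp, another secondary granule protein, stood at 6303 CPM against 5198 CPM in WT and at 13865 CPM against 14356 CPM in KO. The calprotectin subunits S100a8 and S100a9, the most abundant neutrophil transcripts, were higher in late Cxcr2 cells: S100a8 stood at 66205 and 47637 CPM against 33106 and 36313, and S100a9 at 54808 and 67593 CPM against 21276 and 43423.

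Chemotactic receptors were higher in both libraries for 8 of 12 measured and lower for 2, and 5 were 2-fold higher. C5ar1, the receptor for complement C5a, stood at 335 and 505 CPM against 49.3 and 146 CPM, and the chemokine receptor Ccr1 at 193 and 211 CPM against 41.4 and 56.9 CPM. Csf3r, the receptor for granulocyte colony-stimulating factor, stood at 507 and 264 CPM against 163 and 105 CPM. Cxcr4, which holds neutrophils in the marrow and opposes Cxcr2, stood at 157 and 131 CPM against 156 and 155 CPM. The ratio was 1.01 in WT and 0.843 in KO, where size factors turned it to a log2 ratio of 0.22.

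Interferon-response genes were higher in late Cxcr2 cells of both libraries for 13 of 16 measured, 5 of them 2-fold. Ifitm1, a membrane protein that hinders virus entry, ranked next after Cxcr2 and Retnlg among genes at 50 CPM or more, by the smaller of the libraries' ratios, at 390 and 470 CPM against 32.4 and 65.3 CPM. Dhrs9, a retinol dehydrogenase, stood at 141 and 198 CPM against 9.90 and 33.7 CPM, and the cation channel gene Trpm2 at 170 and 129 CPM against 25.3 and 23.5 CPM. Acod1, whose enzyme makes itaconate, stood at 12.3 and 174 CPM against 1.51 and 32.0 CPM. Further genes of this kind were Ankrd33b (117 and 183 CPM against 9.64 and 28.0), Asprv1, a protease (85.7 and 104 CPM against 9.10 and 17.4), and Basp1, a membrane protein (101 and 154 CPM against 13.1 and 28.4).

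Genes of the NADPH oxidase, which makes reactive oxygen, were higher for 6 of 7 measured in both libraries, 1 of them 2-fold. Cytokine and chemokine genes were higher for 11 of 14 and lower for 2, with 7 at 2-fold. The decoy receptor gene Il1r2 stood at 164 and 1023 CPM in late Cxcr2 cells against 29.3 and 297 CPM. Genes of Toll-like receptor signalling and its feedback were higher for 11 of 18 and lower for 0, among them Clec4e, at 147 and 626 CPM against 22.9 and 168 CPM. On the lower side, S phase genes were lower for 19 of 19 and mitotic genes for 18 of 18, in cells from which the rule had removed those with Mki67 or Top2a UMIs. Heat shock genes were lower for 8 of 9 measured, and 4 were 2-fold lower. Replication-dependent histone genes, among them H1f5 (15.5 and 7.12 CPM against 262 and 144), were also among the lowest, though reads of such near-identical copies can be split uncertainly.

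Meis1 and Hoxa9 were asked for in particular. Meis1 (chromosome 11, 18879817 to 19018985), the homeodomain partner of Hoxa9, stood at 630 CPM in the late Cxcr2 cells of WT leukaemia, from 3016 UMIs, and at 362 CPM in those of KO leukaemia, from 3616 UMIs. The other leukaemia cells held 503 and 344 CPM. Late Cxcr2 cells were 1.25-fold higher than the other cells in WT (interval 1.21 to 1.30) and 1.05-fold in KO (1.02 to 1.09), and the KO direction turned (log2 -0.05) when each cell had equal weight. The c-Kit+ Cxcr2 cells held 14.4 and 19.1 CPM from 88 and 110 UMIs, so late Cxcr2 cells were 43.8-fold (35.4 to 54.8) and 19.0-fold (15.7 to 23.2) higher than their normal counterparts.

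Hoxa9 (chromosome 6, 52223100 to 52231089), a homeobox factor of early progenitors, stood at 156 CPM in WT late Cxcr2 cells (747 UMIs) and 119 CPM in KO late Cxcr2 cells (1189 UMIs). The other cells held 175 and 103 CPM, so late Cxcr2 cells were 0.892-fold (0.828 to 0.960) in WT and 1.15-fold (1.08 to 1.22) in KO, and with median-ratio size factors the WT direction turned to a log2 ratio of 0.20. The c-Kit+ Cxcr2 cells held 2.12 and 1.21 CPM from 13 and 7 UMIs, and late Cxcr2 cells were 73.5-fold (42.7 to 139) and 98.3-fold (47.6 to 245) higher. Hoxa10, its neighbour in the Hoxa cluster, stood at 64.8 and 60.0 CPM in late Cxcr2 cells. It had 0 UMIs in both groups of c-Kit+ Cxcr2 cells, so the leukaemic cells were at least 132-fold and 116-fold higher against a floor of 3 UMIs over each group. How the authors' counting shared reads between the adjoining Hoxa genes is not given in the sources used here.

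Other genes of the leukaemic programme were also present in the late Cxcr2 cells. Mecom, which encodes the stem cell factor Evi1 (chromosome 3), stood at 1485 and 1469 CPM, 1.60-fold and 1.23-fold above the other cells, and 535-fold (334 to 918) and 385-fold (254 to 615) above c-Kit+ Cxcr2 cells. Mef2c, a transcription factor of early myeloid and lymphoid cells, stood at 966 and 1004 CPM against 931 and 1193 CPM in the other cells and 81.4 and 65.7 CPM in c-Kit+ Cxcr2 cells, so its direction against the other cells was not the same in both libraries. Pbx3, a further Hox and Meis partner, stood at 882 CPM in WT late Cxcr2 cells and only 103 in KO late Cxcr2 cells, with the other cells at 1002 and 266 CPM (a WT direction that size factors turned) and c-Kit+ Cxcr2 cells at 7.03 and 5.89 CPM. Of the 18 measured genes of a list of 28 MLL-fusion and self-renewal genes, 16 were higher than in c-Kit+ Cxcr2 cells in both pairs, 13 of them 2-fold, and the median log2 ratio was 3.67. Over all 6600 genes of that comparison 10.7% were 2-fold higher and 1.8% 2-fold lower in both pairs, which is 709 and 119 genes, and the median was 0.15. With size factors the counts were 349 and 238 with a median of 0.00, and the list had 15 higher and a median of 3.29. Against the other leukaemia cells 7 of 20 measured members of the list were higher and 9 lower in both libraries, with a median of 0.00, and size factors turned this balance.

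Transcripts that leak from broken cells reach every droplet, so the shares of cells with a UMI were set beside those of T cells, which do not carry this programme. At an equal depth of 2000 UMIs per cell, Meis1 was found in 61.6% of late Cxcr2 cells in WT (58.6 to 64.5) and 47.8% in KO (45.4 to 50.2), against 58.1% and 42.1% of the other cells. In T cells of the same libraries, with medians of 4940 and 6261 UMIs before thinning, it was found in 10.7% (11 of 103) and 7.69% (8 of 104). In c-Kit+ Cxcr2 cells it was found in 1.12% and 0.966%. Without thinning the shares in late Cxcr2 cells were 78.8% (908 cells) and 72.0% (1223 cells), and those in T cells were 25 of 105 and 16 of 107 cells. Hoxa9 was found in 24.2% (21.7 to 26.9) and 21.0% (19.1 to 23.0) of thinned late Cxcr2 cells, in 27.0% and 17.2% of the other cells, and in 4.85% and 1.92% of T cells. Its unthinned shares were 39.6% and 42.6%, with T cells at 15.2% and 10.3%. Both genes thus stood above the T cell background in late Cxcr2 cells of both leukaemias. Pbx3 was found in 55.6% of thinned late Cxcr2 cells in WT against 24.3% of T cells, but in KO in 8.44% against 7.69%, a share at the background. As a level, Pbx3 in KO stood at 103 CPM (96.6 to 109) in late Cxcr2 cells and 34.8 CPM (23.2 to 50.4) in T cells, and 1 cluster described below held 486 CPM. Thinning left out 88 late Cxcr2 cells in WT and 16 in KO.

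**Figure D3:**
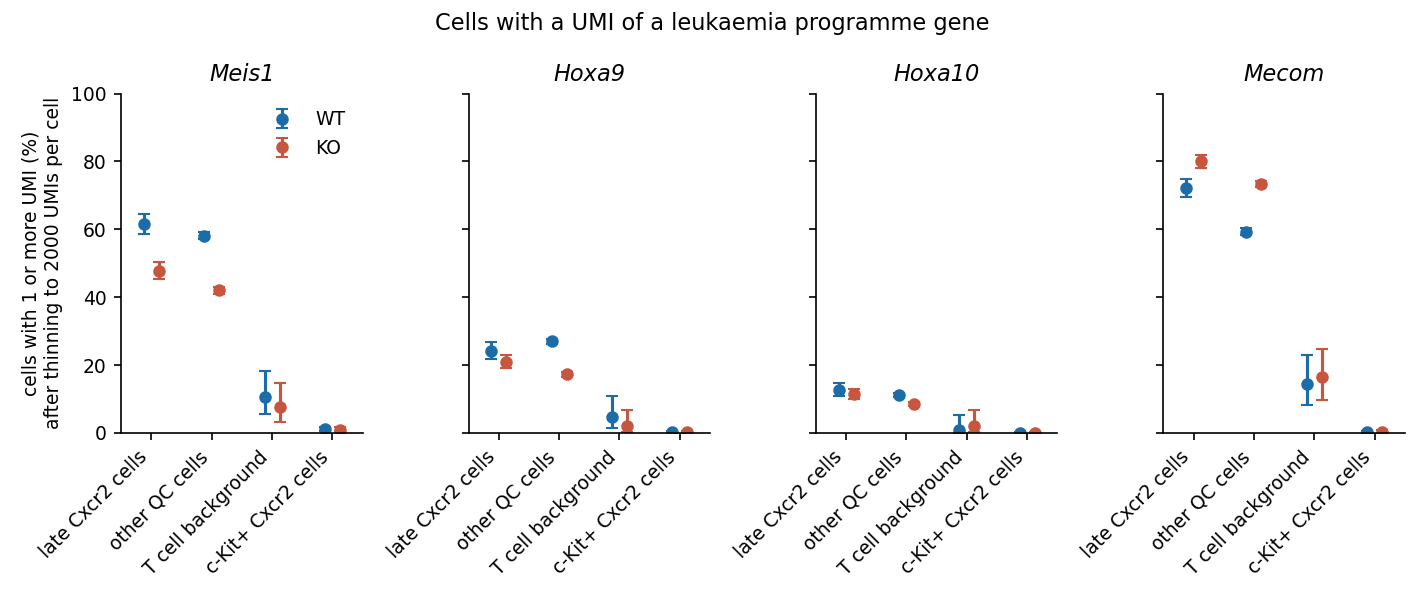
Share of cells (%) with 1 or more UMIs of Meis1, Hoxa9, Hoxa10 or Mecom after thinning to 2000 UMIs, with exact binomial intervals as bars, in late Cxcr2 cells, the other leukaemia cells, T cells of the same libraries and c-Kit+ Cxcr2 cells. Meis1 is found in 61.6% and 47.8% of late Cxcr2 cells, in 10.7% and 7.69% of T cells and in 1.12% and 0.966% of c-Kit+ Cxcr2 cells.

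Cell by cell, 2 or more of Meis1, Hoxa9, Hoxa10 and Mecom were detected at full depth in 865 late Cxcr2 cells of WT leukaemia (75.1%) and 1393 of KO leukaemia (82.0%). Late Cxcr2 cells had more UMIs in KO, so these shares are not matched for depth. None of the 4 was detected in 67 cells (5.82%) and 69 cells (4.06%), while none was detected in 1620 of 1648 WT and 1579 of 1612 KO c-Kit+ Cxcr2 cells. The late Cxcr2 cells with none held 6786 CPM (WT) and 15323 CPM (KO) of Retnlg, nearer to the normal level, against 1547 and 1459 CPM in those with 2 or more. Without the smallest cluster of KO the level in KO cells with none was 5520 CPM. They also differed in other ways. The cells with none had fewer UMIs, with medians of 2660 (WT) and 4078 (KO) against 3853 and 5277 in those with 2 or more. A missing UMI in them can therefore also come from their lower depth. In WT they held the haemoglobin transcript Hbb-bs at 6698 CPM against 131 CPM, and in KO 31 of the 69 lay in 1 small cluster described below. Hoxa10 was found in 0 of 1648 and 0 of 1612 c-Kit+ Cxcr2 cells, which allows shares of cells with a UMI of up to 0.182% and 0.186% and sets no limit on cells that express the gene.

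Late Cxcr2 cells with and without a Meis1 UMI after thinning held Cxcr2 at similar levels. In WT the 655 cells with Meis1 held 512 CPM of Cxcr2 and the 409 without held 501 CPM. Retnlg in WT stood at 2136 CPM in cells with Meis1 against 2911 CPM in those without. In KO it stood at 1898 against 3076 CPM, and at 1884 against 1912 CPM when the smallest cluster of KO (44 cells, described below) was left out. Il1b stood at 186 and 192 CPM in WT and at 1923 and 1607 CPM in KO, with Meis1 first in each pair.

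The same rule took 1648 of 12948 WT c-Kit+ cells (12.7%) and 1612 of 13708 KO c-Kit+ cells (11.8%), at medians of 3334.5 and 3187 UMIs. These marrow libraries are labelled c-Kit+, but Kit stood at only 14.1 and 14.2 CPM in their Cxcr2 cells. The late Cxcr2 cells of leukaemia held Kit at 28.6 and 12.1 CPM, so the selected cells of all 4 libraries had little of it. Late Cxcr2 cells differed from c-Kit+ Cxcr2 cells in genes outside the programme as well. The ephrin receptor gene Epha7 stood at 231 and 480 CPM against 1.47 and 2.60 CPM, and Cdkn2c, an inhibitor of the G1 cell cycle kinases, at 388 and 421 CPM against 2.94 and 4.16 CPM. Epha7 was not particular to late Cxcr2 cells within the leukaemia, since the other cells held 185 and 482 CPM. Secondary granule genes went both ways, with 4 of 12 higher and 7 lower in both pairs and a median log2 ratio of -0.08 (with size factors 2 higher, 9 lower and -0.45). The 2 that were 2-fold lower in both pairs were Camp, at 4863 and 9521 CPM against 42315 and 45337 CPM, and Ltf, at 1411 and 1874 CPM against 6681 and 7014 CPM. Mmp25, a membrane protease of late neutrophils, stood at 22.1 and 8.12 CPM against 176 and 174 CPM. Some genes of the basophil and B cell lineages were lower. The basophil protease gene Mcpt8 stood at 1.04 and 0.702 CPM against 114 and 98.4 CPM, and Prss34 had 0 UMIs in late Cxcr2 cells against 261 and 259 CPM, at least 417-fold and 861-fold lower. Jchain, the joining chain of antibodies, stood at 8.57 and 6.11 CPM against 862 and 359 CPM. Markers of those lineages moved with this comparison: the summed B cell list stood at 199 and 168 CPM in late Cxcr2 cells and 1478 and 1265 CPM in c-Kit+ Cxcr2 cells, and the basophil, mast and eosinophil list at 12.3 and 5.11 CPM against 535 and 491 CPM. The erythroid list was higher in late Cxcr2 cells (1937 and 3331 CPM against 290 and 2213), as was the macrophage list (229 and 86.3 CPM against 48.7 and 37.8). Of the 8 macrophage genes only 1 reached the mean level of 10 CPM in this comparison. The monocyte list stood at 1216 and 712 CPM against 889 and 917 CPM. Their part in the result was not tested.

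Late Cxcr2 cells of KO and WT leukaemia were then compared. Of 7004 genes that reached the same mean level, 527 (7.52%) were 2-fold or more higher in KO and 928 (13.2%) 2-fold or more lower. The median log2 ratio over all genes was -0.32, and with median-ratio size factors it was 0.15 and the counts were 937 and 253. Directions of moderate size between the leukaemias therefore turn with the scaling, and are marked where they do. Among the other cells of the same libraries 440 of 8248 genes (5.33%) were 2-fold higher and 836 (10.1%) 2-fold lower, and with size factors 667 and 279. Of the 527 genes higher in late Cxcr2 cells 343 (65.1%) were also 2-fold higher in the other cells, which is 74.7% of the 459 of these 7004 genes that were higher there, and 439 of the 928 lower ones (47.3%) were lower in both.

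Immediate early genes, which cells switch on within minutes of a stimulus or of handling stress, had the largest median ratio of the lists. All 23 measured members of 25 were higher in KO and 22 were 2-fold higher, with a median log2 ratio of 4.26. The other leukaemia cells showed 22 of 22 with a median of 4.13, and the c-Kit+ Cxcr2 cells 0 of 19 at 2-fold with a median of -0.20. The list summed to 1924 CPM in late Cxcr2 cells of WT leukaemia and to 24971 in those of KO leukaemia. Klf2, a quiescence and trafficking factor, was 32.7-fold higher in KO (30.7 to 34.8), with 213 CPM in WT against 6948. Fos and Fosb, subunits of the AP-1 factor, stood at 99.9 and 23.2 CPM in WT and at 2550 and 1283 CPM in KO. Egr1, a zinc finger factor that responds to the same signals, stood at 9.82 and 658 CPM, and the stress factor Atf3 at 7.94 and 185 CPM. All of these were higher in the other leukaemia cells too, with Egr1 at 10.2 and 618 CPM there. Fosl1 had 0 UMIs in WT and 3009 UMIs (302 CPM) in KO, at least 481-fold higher against a floor of 3 UMIs. T cells of the same libraries showed the same direction for these genes, with Klf2 at 103 and 3254 CPM and Fos at 22.4 and 982 CPM, so the difference was not one of the late Cxcr2 cells alone. Whether handling or free RNA had a part in it was not tested.

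Cytokine and chemokine genes were higher in KO for 12 of 15 measured, 10 of them 2-fold, with a median of 3.01. Cxcl2, itself a ligand of Cxcr2, went from 98.6 CPM in WT late Cxcr2 cells to 3014 in their KO counterparts (30.6-fold, 27.9 to 33.5). The other leukaemia cells held 11.7 and 773 CPM, and c-Kit+ Cxcr2 cells 461 and 316 CPM. Il1b was 8.12-fold higher (7.56 to 8.74), while in the other cells it stood at 10.9 and 282 CPM, a ratio of 25.9. Osm, oncostatin M, stood at 44.9 and 601 CPM, and Il1r2, the decoy receptor of interleukin-1, at 164 and 1023 CPM. Both lay below the c-Kit+ level in WT and above it in KO, since c-Kit+ Cxcr2 cells held Osm at 346 and 348 CPM and Il1r2 at 651 and 585 CPM. Genes of Toll-like receptor signalling and its feedback were higher for 15 of 18, 10 of them 2-fold, with a median of 1.17. Among them were the co-receptor Cd14 (106 and 704 CPM) and the lectin receptor Clec4e (147 and 626 CPM). Neither list was particular to late Cxcr2 cells. In the other leukaemia cells 10 of 11 cytokine and chemokine genes were higher in KO, with a median of 4.04. Of the Toll-like receptor list 16 of 17 were higher there, 10 of them 2-fold, with a median of 1.44.

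**Figure D4:**
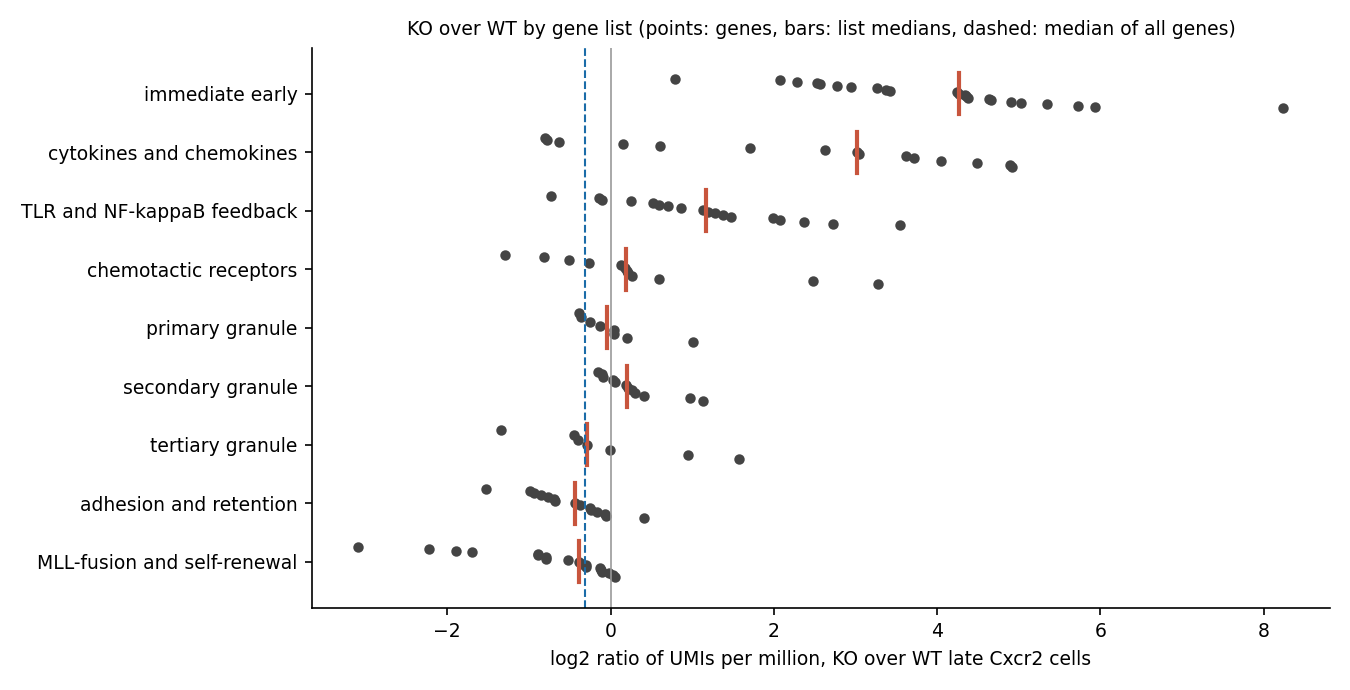
Log2 ratio of KO over WT (pseudocount 1 CPM) in late Cxcr2 cells, with 1 point per measured gene of 9 lists, a bar at the median of each list and a dashed line at the median of all genes (-0.32). Immediate early genes (median 4.26) and cytokines (median 3.01) have the highest medians of the lists shown, and MLL-fusion and self-renewal genes have a median of -0.39.

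Some genes outside the lists were higher by as much. Hilpda, a lipid droplet protein induced in low oxygen, stood at 2.92 and 115 CPM in late Cxcr2 cells against 5.72 and 54.4 CPM in the other cells. Rabgef1, a regulator of endosome traffic, stood at 535 CPM in KO late Cxcr2 cells and 229 CPM in the other KO cells. Ppp1r15a, which relieves the stress block of translation, stood at 5.22 and 148 CPM against 5.04 and 119 CPM. For Hilpda and Rabgef1 the KO to WT ratio was larger in late Cxcr2 cells (39.3 and 22.3) than in the other cells (9.51 and 8.97), and this difference was not tested.

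Interferon-response genes had 9 of 16 higher and 7 lower, and the 4 that were 2-fold higher included Slfn4 (107 and 324 CPM) and Isg15 (38.2 and 83.2 CPM). In the other leukaemia cells 8 of 16 were higher in KO, 4 of them 2-fold.

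Receptors and survival genes differed in both directions. Of 12 measured chemotactic receptors 8 were higher in KO and 4 lower. Ccrl2 (13.6 and 140 CPM) and Trem1 (92.1 and 520 CPM) were 2-fold higher, and 1 receptor was 2-fold lower. In the other leukaemia cells 10 of 12 were higher in KO, 4 of them 2-fold, and 2 lower. Fpr1 was also among the receptors that were lower in late Cxcr2 cells, at 0.565 of WT. Of 12 growth factor receptors 5 were higher and 7 lower as CPM, and 6 and 6 with size factors. Csf3r stood at 0.520 of WT (0.492 to 0.550), and the interleukin-6 receptor gene Il6ra at 121 and 40.6 CPM. Of 14 apoptosis genes 6 were 2-fold higher, with the survival gene Mcl1 at 483 and 2167 CPM and the p53 target Cdkn1a at 6.89 and 169 CPM, and Bcl2 was 2-fold lower (21.1 and 7.52 CPM). The other leukaemia cells had 6 of 14 apoptosis genes 2-fold higher in KO and 2 that were 2-fold lower. Among granulocyte transcription factors Cebpb, a factor of stress granulopoiesis, stood at 564 and 2534 CPM, and Irf8, which favours monocytes, at 31.1 and 9.02 CPM.

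Granule genes lay closer together. Primary granule genes had 4 of 8 higher and 4 lower in KO as CPM and 8 of 8 higher with size factors, and secondary granule genes 9 of 12 higher as CPM and 12 of 12 with size factors. In each list 1 gene was 2-fold higher as CPM. Those were Mpo, at 2.06-fold (1.66 to 2.59), and Ngp, at 2.20-fold (2.17 to 2.23). Mpo stood at 195 CPM in cluster 4 of KO (155 cells, described below). In the remaining KO late Cxcr2 cells it stood at 16.0 CPM. In WT, Mpo was also highest in 1 cluster, cluster 5 (75 cells), at 59.2 CPM, with 9.72 to 18.0 CPM in the other clusters. The KO level without cluster 4 is therefore no like match for the WT level, which includes cluster 5. Retnlg had a ratio of 1.02 (0.997 to 1.05) as CPM, while in the other cells it was 1.81, and without the smallest cluster of KO its log2 ratio of 0.03 turned to -0.33. This near-equal level depends on the scaling, since size factors moved the median log2 ratio of all genes from -0.32 to 0.15. Mmp8 had a ratio of 0.732, which size factors turned to a log2 ratio of 0.03. Cxcr4, at a ratio of 0.833, was also lower as CPM and turned to a log2 ratio of 0.21 with size factors.

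Among MLL-fusion and self-renewal genes, 2 of 19 measured were higher and 17 lower in KO late Cxcr2 cells, with a median of -0.39, close to that of all genes (-0.32), and size factors changed the balance to 10 higher and 9 lower with a median of 0.08. The 4 members that were 2-fold or more lower were Pbx3, Eya1, Igf2bp3 and Cbx5. Meis1 had a ratio of 0.575 (0.548 to 0.604), a log2 ratio of -0.80 as CPM and -0.32 with size factors. In the other cells the ratio was 0.683. Hoxa9 had a ratio of 0.764 (0.696 to 0.838), and its log2 ratio of -0.39 turned to 0.08 with size factors. In the other cells it was 0.591. Hoxa10 had a ratio of 0.927 (0.807 to 1.07) and Mecom 0.989 (0.961 to 1.02), both as CPM with intervals that include equal levels. Size factors moved the median log2 ratio of all genes from -0.32 to 0.15, and Mecom was then higher in KO. These near-equal levels therefore depend on the scaling.

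Pbx3 had a ratio of 0.117 (0.109 to 0.125) and was lower under size factors too, at a log2 ratio of -2.62. T cells of the same libraries had the same direction (401 and 34.8 CPM), and the part of free RNA in this difference was not tested. The lowest of the ranked genes, which had a mean level of at least 50 CPM, was Pcdh7, a protocadherin. It stood at 516 CPM in the WT cells against 11.2 in the KO cells, with the other cells at 345 and 33.2 CPM. Further down were Eya1, a transcriptional co-activator (288 and 61.0 CPM), Hpgd, which breaks down prostaglandins (462 and 93.1 CPM), the E protein gene Tcf12 (181 and 42.5 CPM) and the Wnt pathway factor Tcf7l2 (98.8 and 23.3 CPM). In the other cells Hpgd stood at 1021 and 379 CPM and Eya1 at 240 and 136 CPM, so both were lower in KO there as well.

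Markers of other cell types were present at different levels in the late Cxcr2 cells. The summed T and NK cell list stood at 66.9 and 49.3 CPM, with Ncr1 at 0 in both. The macrophage list stood at 229 and 86.3 CPM, with Cd5l and Spic at 0 in both, and the conventional dendritic list at 141 and 24.7 CPM. The monocyte list summed to 1216 and 712 CPM, below the 1966 and 1288 CPM of the other cells. The erythroid list, which is mostly haemoglobin, stood at 1937 and 3331 CPM against 2275 and 12367 CPM. Their part in the differences between KO and WT was not tested.

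Late Cxcr2 cells were not uniform. Each library was clustered alone, and clusters are given by number in order of size, since they are cut from the same counts and name no cell type. In WT, clusters 1 (398 cells) and 2 (308 cells) held the most Retnlg, at 3424 and 3560 CPM, and had 2 or more of the 4 other late markers in 89.7% and 93.8% of cells. Cluster 1 was led by the haemoglobin genes Hba-a1, Hbb-bt, Hba-a2 and Hbb-bs. Its erythroid list summed to 7128 CPM against 289 CPM in cluster 2, while Hbb-bs was detected in 40.7% of its cells and in 44.2% of those of cluster 2. The clusters also differed in Camp (837 and 8095 CPM) and Il1b (421 and 34.3 CPM). Cluster 3 (268 cells), led by Rgs7, Chil3, Ica1 and Fcnb in this order, had Retnlg at 426 CPM and 2 or more late markers in 54.1%. Cluster 5 (75 cells) had them in 42.7%, was led by Gpnmb, with C1qc at rank 10, and had a median of 7869 UMIs. Its summed primary granule list stood at 3700 CPM, with Elane at 1532 CPM. The conventional dendritic list stood at 790 CPM and the macrophage list at 448 CPM. Each of these sums was the highest of the WT clusters. Cluster 5 goes against the name of the cells, and cluster 3, with 2 or more late markers in 54.1%, fits it only in part.

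All 5 WT clusters carried Meis1, at 525 to 751 CPM, and Hoxa9, at 105 to 220 CPM. The lowest values of both genes were in cluster 2, where Camp was highest. Cluster 4 (103 cells), led by Cacnb2 and Nupr1, held Pbx3 at 42.1 CPM while the other 4 held 757 CPM or more, and held Mecom at 2261 CPM, the highest of the 5. It also had the highest Cxcr2 (713 CPM), Fpr1 (619 CPM) and Il1b (483 CPM) of the 5. Its Retnlg stood at 1270 CPM, and 2 or more late markers were found in 74.8% of its cells.

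In KO, clusters 1 (573 cells) and 2 (390 cells) had Retnlg at 2921 and 2400 CPM, Il1b at 2602 and 1998 CPM, and 2 or more late markers in 91.8% and 96.4% of cells. Cluster 2 was led by the interferon-response genes Slfn5, Rsad2 and Isg15. Cluster 3 (385 cells), led by Ica1 with Ltf at rank 6, had Retnlg at 545 CPM and Camp at 13745 CPM. Cluster 4 (155 cells) was led by Stxbp6, with the primary granule genes Elane, Ctsg, Prtn3 and Mpo at ranks 2, 4, 9 and 10. Its Elane stood at 3177 CPM, 2 or more late markers were found in 52.3% of its cells, and it too goes against the name. Cluster 5 (152 cells), led by Pcdh7 and Stfa3, held Pbx3 at 486 CPM, while the other 5 held 22.5 to 115 CPM. It also had the highest Camp (24934 CPM), Ltf (4329 CPM) and Ngp (24764 CPM) of the KO clusters. Its Retnlg stood at 1257 CPM, and 2 or more late markers were found in 80.3% of its cells.

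Cluster 6 of KO (44 cells) stood apart. Its Retnlg level was 26291 CPM, above that of c-Kit+ Cxcr2 cells, and without it the level in KO late Cxcr2 cells was 1569 CPM in place of 2011. In cluster 6, 2 or more late markers were found in 100% of cells. Meis1 stood at 22.5 CPM, Hoxa9 at 11.2 CPM and Mecom at 50.5 CPM, against 283 to 410, 101 to 148 and 549 to 1710 CPM in the other 5 clusters. Clusters 1 to 5 of KO all carried Meis1. Immediate early genes were high in all 6 KO clusters, cluster 6 included, with Klf2 at 5492 to 7943 CPM and Fos at 1488 to 3931 CPM, while in the 5 WT clusters Klf2 stood at 158 to 343 CPM and Fos at 57.6 to 197 CPM. WT had no cluster with Meis1 under 525 CPM.

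**Figure D5:**
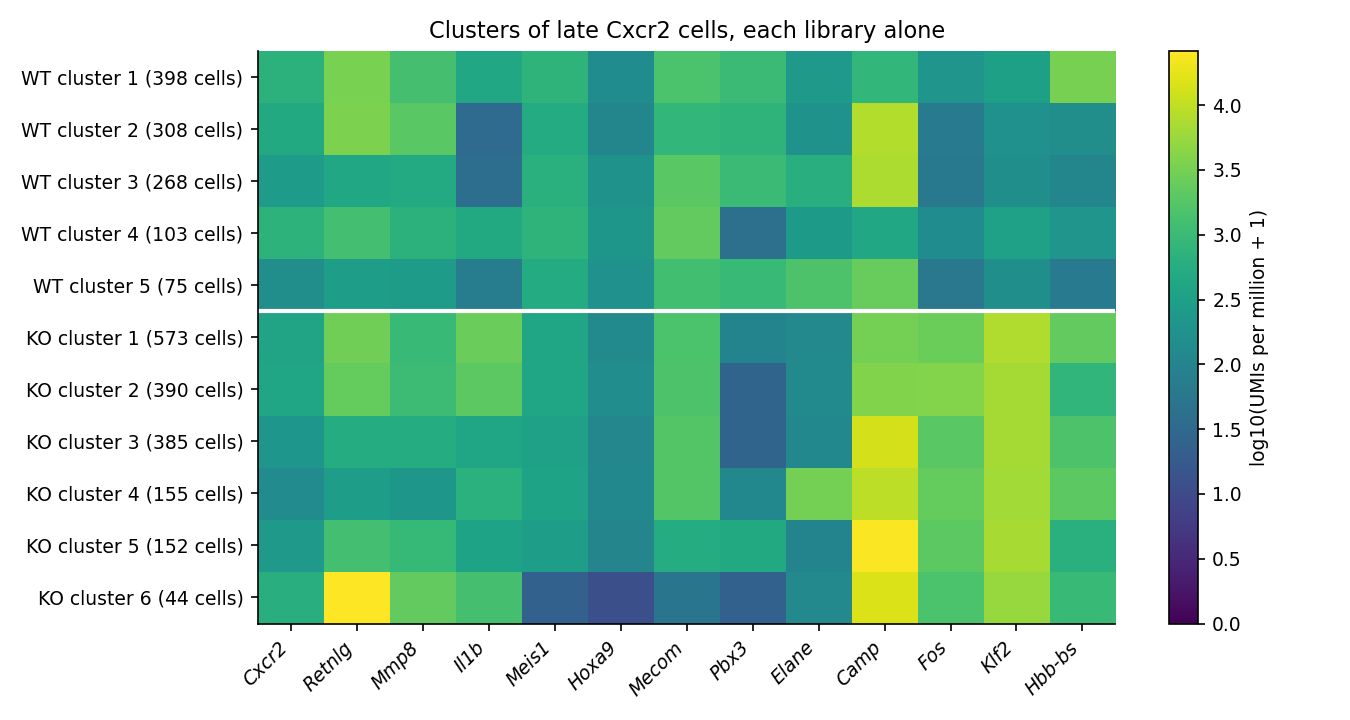
Heat map of levels, as log10 of CPM plus 1, of 13 genes (columns) in each cluster (lines) of late Cxcr2 cells, clusters numbered by size within each library. Cluster 6 of KO (44 cells) has the highest Retnlg (26291 CPM) and the lowest Meis1 (22.5 CPM), and Klf2 is higher in each KO cluster (5492 to 7943 CPM) than in each WT cluster (158 to 343 CPM).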

How the data were processed

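Single-cell RNA was captured in droplets from 4 mouse bone marrow libraries, 1 per group, so no test, p-value or replicate error exists. As deposited, the values are whole UMI counts for every barcode and gene, made with Cell Ranger 7.1.0 against mm10 per the submitters' processing notes. The annotation and the use of strand are not given in the sources used here. Positions come from GENCODE M21 (GRCm38), which holds 51948 of the 56941 feature IDs.

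Cells were filtered as the text states. Counts were summed over the cells of a group and divided by the sum to give CPM, and log2 ratios used a pseudocount of 1 CPM. Genes with a mean level of at least 10 CPM entered counts, and called means 2-fold. Intervals are exact (Poisson, conditional binomial, Clopper-Pearson) at 95%. Cells of 1 library are not replicates. T cells for the free-RNA background had 3 or more UMIs of Cd3d, Cd3e, Cd3g and Trbc2 together. For shares, each cell was thinned to 2000 UMIs, and shallower cells were left out. Doublets called by Scrublet (scanpy 1.11.5, expected rate 0.08) were kept and removed only as an alternative. Leiden clusters used 2000 variable genes, 20 components, 15 neighbours and resolution 0.5. Ratios were tested on simulated data.

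The members and gene lists were chosen with earlier results of these data known. Named genes are 21 fixed genes (1 further gene of the rule is not reported here), the 12 highest and 12 lowest ratios of KO over WT and of late over other cells, the 10 highest and lowest against c-Kit+ Cxcr2 cells, all with a mean level of at least 50 CPM, and up to 4 per list, and not each is printed. Haemoglobin, mitochondrial and numbered genes were left out of the ranking. Hbb-bs, Acod1 and the genes that lead clusters were named after their values were seen. The 14 alternatives changed doublets, the cell filter, the Cxcr2 and stefin limits, late markers, depth, cell weight, scaling, the pseudocount and the level filter. Retnlg without the smallest KO cluster was an alternative added after seeing the data.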

Additional observations from a re-analysis of the deposited data

Results flagged for a closer look

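For 3 of the named genes the log2 ratio of late Cxcr2 cells over the other cells pointed one way in WT leukaemia and the other way in KO leukaemia. Hoxa9 was at -0.16 in WT and 0.20 in KO. Mef2c was at 0.0524 in WT and -0.25 in KO. Ngp was at 0.28 in WT and -0.0502 in KO. With 1 library per genotype the difference between WT and KO was not tested, and several of these values lie near 0.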

How the results depend on the processing

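No paired analysis was possible because each group had 1 library. Of the results on other genes and on lists, 71 kept their direction under those of the 14 alternatives that could be run and 11 turned under at least 1, as did 3 of the 6 ratios of Meis1 and Hoxa9, and the cause of each change was not tested. Shares of late Cxcr2 cells in WT and KO were 4.27% and 6.10% with 2 or more Cxcr2 UMIs, 8.14% and 13.8% with stefin UMIs under 0.5%, 10.8% and 16.0% with no stefin limit, 6.83% and 12.3% when 2 of the 4 other late markers were required, and 6.55% and 8.50% in thinned cells. The stricter cell filter gave 15.1% in KO.

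Meis1 in late over other cells was at log2 0.39 in WT with 2 or more Cxcr2 UMIs, 0.20 thinned, 0.14 with equal weight per cell and 0.69 with size factors, and in KO it turned to -0.0453 with equal weight and was 0.55 with size factors. Meis1 KO over WT was -0.72 thinned and -0.32 with size factors. Hoxa9 KO over WT was -0.24 with 2 or more Cxcr2 UMIs, -0.23 thinned, -0.25 with equal weight, and turned to 0.0850 with size factors. Hoxa9 in late over other cells of KO was 0.34 thinned, 0.33 with equal weight and 0.67 with size factors, and in WT it turned to 0.20 with size factors.

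Size factors gave 937 genes higher and 253 lower in KO late Cxcr2 cells, and 740 higher and 611 lower than in other cells. Genes lower in KO numbered 615 with a pseudocount of 5 CPM and 481 at a level of 25 CPM, where genes lower than in other cells numbered 677.

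Elane KO over WT turned to -0.00515 without doublets, -0.17 thinned and -0.11 with equal weight. Mef2c in WT late over other cells turned to -0.0135 with no stefin limit, -0.0498 with 2 of 4 late markers, -0.10 thinned and -0.13 with equal weight. With size factors, KO over WT turned to 0.0252 for Mmp8, 0.21 for Cxcr4, 0.15 for the median of all genes and 0.0850 for that of the MLL-fusion list. Late over other cells then turned to 0.18 for Pbx3 in WT, and in KO to 0.22 for Mef2c, 0.30 for Rbm5, 0.22 for Cxcr4 and 0.42 for Ngp. Without cluster 6 of KO, an alternative added after seeing the data, Retnlg KO over WT turned to -0.33. Having 1 library per group limits all comparisons between WT and KO, and for Hoxa9 and Hoxa10 in c-Kit+ Cxcr2 cells 13, 7 and 0 UMIs limit the ratios.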
